A study of Homo sapiens with 2 samples.

Results

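The 44 genes described here encode the machinery of mitosis: cyclins and kinases that start it, the chromosomal passenger and checkpoint proteins that control it, the kinetochore and kinesin motors that move chromosomes, and the proteins that complete cytokinesis. They were taken by gene symbol from the platform annotation of the array, each through the brightest transcript cluster that carried that symbol alone. Of the 44 listed genes, 43 were measured, out of 14451 genes tested, and each of the 43 had 1 transcript cluster. The cluster of BUB1B carried a second gene symbol and gave no value. The RNA was that of NCI-H446, a long-established human line derived from small cell lung carcinoma. Its cells carried, by stable transfection, either the control vector or the plasmid for MTA1 overexpression, MTA1 being a component of NuRD, which remodels chromatin and removes histone acetyl groups. Both groups were kept in the same culture medium, and each was represented by 1 Affymetrix array. Whether the stable cells were a clone or a pool, and which promoter drives the plasmid, is not given in the sources used here.

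Cells enter mitosis when cyclin B and CDK1 become active, and Aurora and Polo-like kinases then build the spindle. Kinetochores assemble on CENP-A chromatin and bind microtubules through the NDC80 complex, and unattached kinetochores hold the anaphase-promoting complex through the spindle checkpoint. Most genes of this set are transcribed late in the cell cycle and are repressed in resting cells, so their joint level in bulk RNA follows how many cells are dividing. In RNA of a whole culture, fewer dividing cells and less transcript per dividing cell cannot be told apart. NF-Y, which binds CCAAT boxes, and the MuvB complex, whose subunit LIN54 binds the cell cycle genes homology region (CHR), control many of them. MuvB acts as a repressor within DREAM and as an activator with MYBL2 and FOXM1.

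RefSeq promoters are shown for the members with the largest lower difference, HMMR and PTTG1, and with the largest higher difference, CDCA8 and ANLN. These promoters were picked by size of difference. All of them held CHR, CCAAT or both, motifs through which this gene class is known to be controlled. Each runs from 250 bases before to 50 bases after the gene start, on the plus strand of GRCh38.p14, with capitals marking the CHR motif TTTGAA and the motif CCAAT on either strand. The HMMR promoter (chr5:163460382-163460681) held 2 CHR matches and 5 CCAAT matches. The PTTG1 promoter (chr5:160421605-160421904), the first of 2 listed, held 3 CCAAT matches. The CDCA8 promoter (chr1:37692266-37692565) held 1 CHR match and 3 CCAAT matches, and the ANLN promoter (chr7:36389612-36389911) held 2 CHR matches. A CCAATTGG run counts once on each strand, and the CHR match of CDCA8 overlaps a CCAAT match.
HMMR: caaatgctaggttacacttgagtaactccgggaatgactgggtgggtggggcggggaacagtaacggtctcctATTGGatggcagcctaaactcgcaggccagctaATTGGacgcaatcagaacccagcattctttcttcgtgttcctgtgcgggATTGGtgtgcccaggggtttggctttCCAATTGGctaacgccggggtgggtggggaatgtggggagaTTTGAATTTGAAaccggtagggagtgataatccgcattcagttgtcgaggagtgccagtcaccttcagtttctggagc
PTTG1: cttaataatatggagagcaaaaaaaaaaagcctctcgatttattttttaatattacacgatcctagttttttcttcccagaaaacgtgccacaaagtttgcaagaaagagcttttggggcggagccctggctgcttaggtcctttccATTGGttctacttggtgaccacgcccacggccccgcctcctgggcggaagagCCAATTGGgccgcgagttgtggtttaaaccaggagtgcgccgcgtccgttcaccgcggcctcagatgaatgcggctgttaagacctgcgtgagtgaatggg
CDCA8: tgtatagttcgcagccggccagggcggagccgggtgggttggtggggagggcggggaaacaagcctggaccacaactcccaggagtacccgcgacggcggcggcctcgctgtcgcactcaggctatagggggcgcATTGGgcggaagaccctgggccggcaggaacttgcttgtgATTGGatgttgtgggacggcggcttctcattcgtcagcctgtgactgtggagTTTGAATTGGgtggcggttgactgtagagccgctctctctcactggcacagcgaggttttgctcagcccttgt
ANLN: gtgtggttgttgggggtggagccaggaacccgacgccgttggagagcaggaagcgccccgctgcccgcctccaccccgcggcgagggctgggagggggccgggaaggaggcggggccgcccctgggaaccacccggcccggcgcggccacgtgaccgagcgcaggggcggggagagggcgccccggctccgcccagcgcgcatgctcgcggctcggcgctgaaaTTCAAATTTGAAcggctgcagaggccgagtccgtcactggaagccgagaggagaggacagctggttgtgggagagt
HMMR and CDCA8, at opposite ends of the differences, thus both hold CHR and CCAAT letters.

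The deposited values are log2 signals, and a difference is always the MTA1 array minus the control array on the log2 scale. Since each group had 1 array, no test was possible and no spread between replicates was known, and every difference describes these 2 arrays. Where a gene's values are given as a pair, the control array comes first. MTA1 itself had log2 signals of 7.31 and 9.82, 5.71-fold higher in the cells with its plasmid. A gene was tested if either array reached the floor of 3.62, the median signal of all transcript clusters. For 273 other genes with several probe sets, differences of the same gene varied with a pooled SD of 0.131, a spread among probes of one RNA that does not cover separate cultures. On the MTA1 array the 4 spiked-in hybridisation controls (bioB, bioC, bioD, cre) exceeded their control-array signals by 0.23 to 0.28, and their part in the differences was not tested. Of 10 small cell lung cancer markers, 8 were measured and 3 reached the floor: ENO2, at 8.89 and 9.13, UCHL1, at 5.30 and 5.21, and INSM1, at 4.06 and 4.21. CHGA, SYP, NCAM1, DLL3 and POU2F3 were under the floor on both arrays, so the small cell carcinoma label rests on few markers here. Of 10 markers of other cell types, 5 reached the floor, the highest being the macrophage marker CD68 at 11.26 and 11.19, and the leukocyte gene PTPRC was under it. PECAM1, COL1A1, DCN and ACTA2 also reached the floor, none of them above 4.13 on either array. The summed linear signal of these 10 genes was 2557 on the control and 2444 on the MTA1 array, nearly all of it from CD68. The part of these 10 genes in the results was not tested.

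The mitotic genes were strongly expressed on both arrays and mostly slightly lower in the MTA1 cells. Of the 43 members, 32 had a difference below 0 and 11 above 0, or 74.4% below 0, against 53.6% of all genes tested. Their median difference was -0.10, a 1.07-fold lower signal, while the median of all genes was -0.013. No member was 2-fold apart, against 0.339% of genes at least 2-fold lower and 0.291% at least 2-fold higher. At least 1.2-fold lower were 4 members, or 9.30%, against 9.35% of all genes, so the share past this size was near the background. At least 1.2-fold higher was 1 member, or 2.33%, against 8.40% of all genes. The values thus show small differences in many genes and not a few large ones. By rank among all genes tested, 17 members lay among the lowest 25% of differences, 6 among the highest 25% and 20 between them. The difference was within the probe set SD of 0.131 for 23 members, beyond it on the lower side for 16 and on the higher side for 4, where 24.4% and 20.5% of all genes were. Setting the array scale to the hybridisation controls, a constant shift of 0.24, put 42 of the 43 below 0, along with 91.0% of all genes, whose median became -0.26. It left CDCA8 alone above 0, so the higher values given below for other members turn under that scaling. It put 31 members at least 1.2-fold lower and 0 higher, against 49.9% and 2.11% of all genes. Median scaling, loess and quantile normalisation each left 2 of the 43 members at least 1.2-fold lower, against 8.64%, 7.68% and 7.52% of all genes in that order, so the members' share was then below the background. Each left 1 member at least 1.2-fold higher, against 9.18%, 10.0% and 10.4% of all genes.

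**Figure D1:**
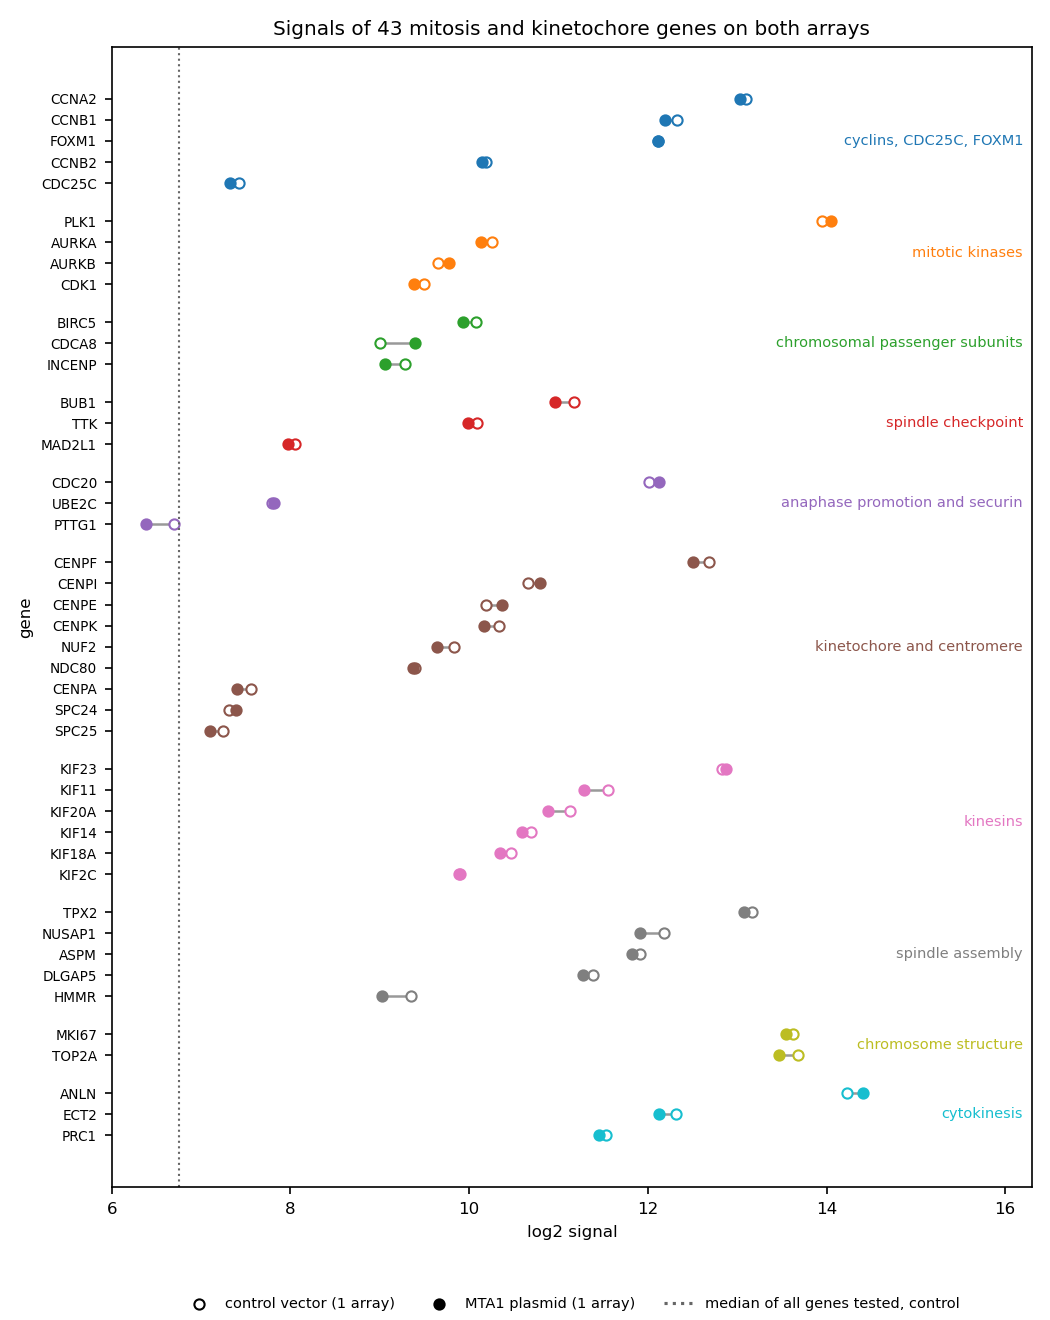
Log2 signal (horizontal axis) of each of the 43 measured members on the control array (open circles) and the MTA1 array (filled circles), 1 array each, grouped by role; the dotted line is the median control signal of all genes tested, 6.75. All members but PTTG1, at 6.70 and 6.38, lie to the right of that line on both arrays, and the longest bars are those of CDCA8, HMMR and PTTG1.

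The members covered a wide range of signal. On the control array they ran from 6.70 for PTTG1 to 14.23 for ANLN, with a median of 10.47, and on the MTA1 array from 6.38 to 14.41, with a median of 10.36. The medians of all genes tested were 6.75 and 6.74. No member exceeded 16, the log2 of the largest reading of a 16-bit scanner, whereas 829 features of the arrays did, and the cause of the values above 16 is not given in the sources used here. With the genes tested split by signal into 5 bins of equal size, 31 members fell in the brightest bin. In that bin 54.5% of genes were below 0 with a median of -0.017, and 23 of its 31 members were below 0 with a median of -0.10. In the next bin 5 of 7 members were below 0, against 57.3% of genes, and in the middle bin 4 of 5, against 56.8%. Across the 43 members the correlation between mean signal and difference was 0.11 (Pearson r, across genes that share both arrays), so brightness and difference were almost unrelated.

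**Figure D2:**
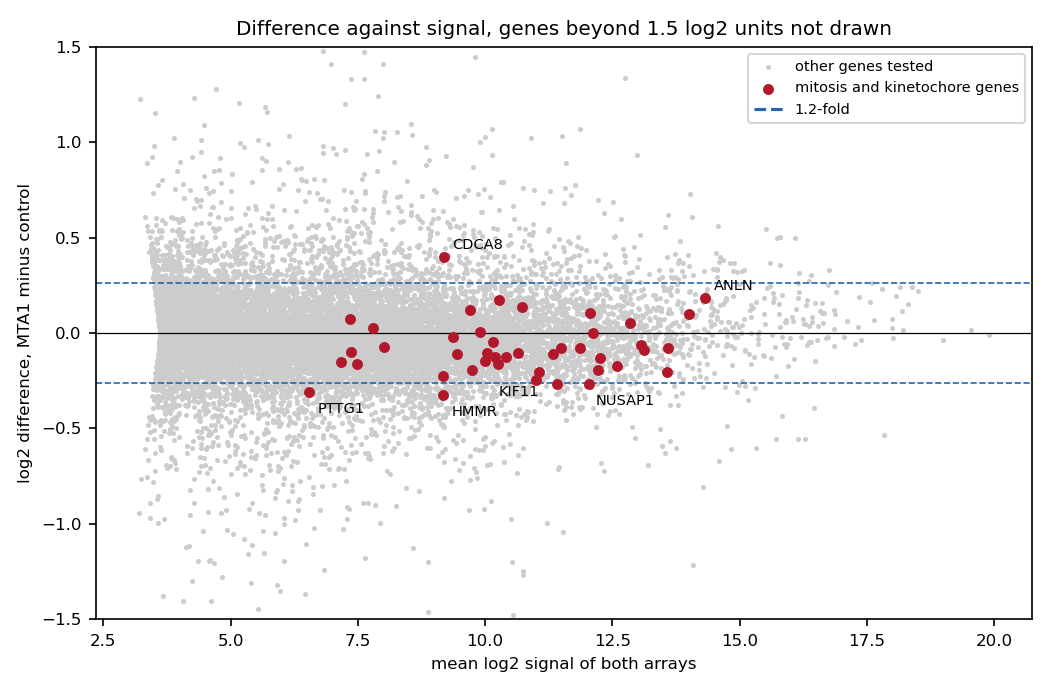
Log2 difference, MTA1 minus control, against the mean log2 signal of both arrays, for the members (red) and all other genes tested (grey); dashed lines mark 1.2-fold, a log2 difference of 0.263 in size. Members lie within the cloud of other genes and mostly below 0, with PTTG1, HMMR, KIF11 and NUSAP1 under the lower line and CDCA8 over the upper one.

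The cyclins and the genes that drive mitotic entry were slightly lower, and none reached 1.2-fold. CCNB1, the main cyclin of mitotic entry, had a signal of 12.33 in control cells and 12.20 in MTA1 cells, a difference of -0.13. Its relative CCNB2 was at 10.19 and 10.14. CCNA2, the cyclin of S and G2 phase, was at 13.10 and 13.04. All 3 cyclins were thus lower by little, CCNB1 most. CDC25C, the phosphatase that removes the inhibitory phosphates of CDK1, was at 7.42 and 7.32. FOXM1, the transcription factor that activates many of the other members, was level at 12.12 and 12.11, with a difference of -0.00095, which turned to above 0 after median scaling and after loess. The 5 genes of this group had a median difference of -0.062, and 5 of 5 were below 0, where 53.6% of all genes were.

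The mitotic kinases were split. CDK1, the kinase that cyclin B activates, stood at 9.50 and 9.39, and AURKA, which matures centrosomes and the spindle, at 10.26 and 10.13. AURKB, the kinase of the chromosomal passenger complex, was in contrast at 9.65 in control cells and 9.78 in MTA1 cells. PLK1, the Polo-like kinase and the second brightest member by mean signal, stood at 13.95 and 14.05. Of 4 kinases 2 were thus lower and 2 higher, with differences from -0.12 to 0.12 and a median of -0.0060. This median turned to 0.0072 after median scaling and 0.0095 after loess, and became -0.11 when the checkpoint kinases were counted with these genes. None reached 1.2-fold in either direction.

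The other subunits of the chromosomal passenger complex held the member with the largest difference of all. CDCA8, which encodes Borealin, had a signal of 9.00 in control cells and 9.40 in MTA1 cells, 1.32-fold higher, above 96.0% of all genes tested. INCENP, the scaffold that activates Aurora B, differed the opposite way, at 9.29 and 9.06, and BIRC5, which encodes survivin, was at 10.08 and 9.93. With AURKB, the 4 subunits of this complex were thus 2 higher and 2 lower. Borealin, survivin and the INCENP amino terminus form 1 module in the protein, yet CDCA8 lay apart from its partners by 0.55 log2 units from BIRC5 and 0.62 from INCENP, values within these arrays that say nothing of protein.

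The spindle checkpoint genes were lower, and none by as much as 1.2-fold. BUB1, the kinetochore kinase that recruits other checkpoint proteins, was at 11.17 and 10.96, 1.15-fold lower on the MTA1 array. TTK, which encodes the checkpoint kinase MPS1, was at 10.09 and 9.99, and MAD2L1, the subunit of the inhibitor of anaphase promotion, at 8.05 and 7.98. The 3 measured genes had a median of -0.10, and 3 of 3 were below 0, where 53.6% of all genes were.

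Genes that act on the anaphase-promoting complex differed in direction. PTTG1, which encodes securin, the inhibitor of separase, stood at 6.70 in control cells and 6.38 in MTA1 cells, 1.24-fold lower, at rank 989 from the lowest of 14451 genes. CDC20, the coactivator of the complex that the checkpoint restrains, was at 12.02 and 12.12, and UBE2C, its ubiquitin-conjugating enzyme, was level at 7.79 and 7.82. The securin gene was thus the only one of these 3 below 0, and their median difference was 0.026. PTTG1 was the dimmest of the 43 members on both arrays.

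The kinetochore and centromere genes were lower in 6 of 9 cases, or 66.7%, against 53.6% of all genes. Their median was -0.15, with a range from -0.19 to 0.18. CENPA, the histone H3 variant that marks centromeres, was at 7.56 and 7.40. CENPK, of the constitutive centromere network, was at 10.33 and 10.17, whereas CENPI of the same network was at 10.66 and 10.80. The inner kinetochore genes therefore differed in direction. CENPF, a large protein of the outer kinetochore and nuclear matrix, was at 12.68 and 12.51. CENPE, the kinesin that carries chromosomes to the spindle equator, was at 10.19 in control cells and 10.36 in MTA1 cells, 1.13-fold higher, the third largest higher difference of a member. The NDC80 complex, the microtubule-binding tetramer of the outer kinetochore, has all of its subunits among the members. NUF2 was at 9.83 and 9.64, SPC25 at 7.25 and 7.10, NDC80, which turned to above 0 after loess and after quantile normalisation, at 9.39 and 9.37, and SPC24 at 7.31 and 7.39. The 4 subunits of 1 complex thus ranged from -0.19 to 0.073, which is a spread between genes within these arrays and not an error of any of them. None of the 9 genes reached 1.2-fold.

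Of the kinesins, 4 of 6 were lower, or 66.7%, against 53.6% of all genes, and the median was -0.12. KIF11, the motor that pushes spindle poles apart and the target of anti-mitotic drugs, was at 11.56 in control cells and 11.29 in MTA1 cells, a difference of -0.27 and just past the threshold. KIF20A, needed for the central spindle, was at 11.13 and 10.89, 1.19-fold lower and just short of it. These motors act at opposite ends of mitosis, one at spindle assembly and one at division. KIF18A, which dampens chromosome movements, was at 10.47 and 10.34, and KIF14, a motor of the midbody, at 10.70 and 10.59. KIF2C, a microtubule depolymerase at centromeres, was level at 9.89 and 9.90, and KIF23, a subunit of centralspindlin, was at 12.83 and 12.88. With CENPE counted as a kinesin the median was -0.11.

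The spindle assembly genes were lower in 5 of 5 cases, where 53.6% of all genes were. Their median was -0.11, and they held 2 of the 4 members at least 1.2-fold lower. HMMR, which encodes the hyaluronan receptor that also binds spindle microtubules, stood at 9.34 in control cells and 9.02 in MTA1 cells, 1.25-fold lower, the largest lower difference of a member, at rank 883 from the lowest of all genes. NUSAP1, a microtubule-bundling protein, was at 12.18 and 11.92, a difference of -0.27. DLGAP5, a protein of kinetochore fibres, was at 11.39 and 11.28. TPX2, which activates Aurora A on the spindle, was at 13.17 and 13.08, and ASPM, a spindle pole protein, at 11.91 and 11.83. HMMR and NUSAP1 thus lay apart from the other genes of this group, which differed by -0.081 to -0.11. Under median scaling and loess HMMR and PTTG1 stayed past 1.2-fold and KIF11 and NUSAP1 did not, and under repeated quantile normalisation HMMR and KIF11 did.

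Among the genes of chromosome structure, TOP2A, the topoisomerase that untangles sister chromatids, was at 13.68 in control cells and 13.47 in MTA1 cells, 1.15-fold lower. MKI67, which encodes the proliferation antigen Ki-67, was at 13.63 and 13.55, 1.06-fold lower. The proliferation marker was thus slightly lower, with a difference of -0.080, where the median of the members was -0.10. Of the cytokinesis genes, ECT2, which activates RhoA at the equator, was at 12.32 and 12.12, and PRC1, which bundles the central spindle, at 11.53 and 11.45. ANLN, the scaffold of the contractile ring and the brightest member, was higher instead, at 14.23 in control cells and 14.41 in MTA1 cells, 1.13-fold. The 3 cytokinesis genes had a median of -0.081.

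**Figure D3:**
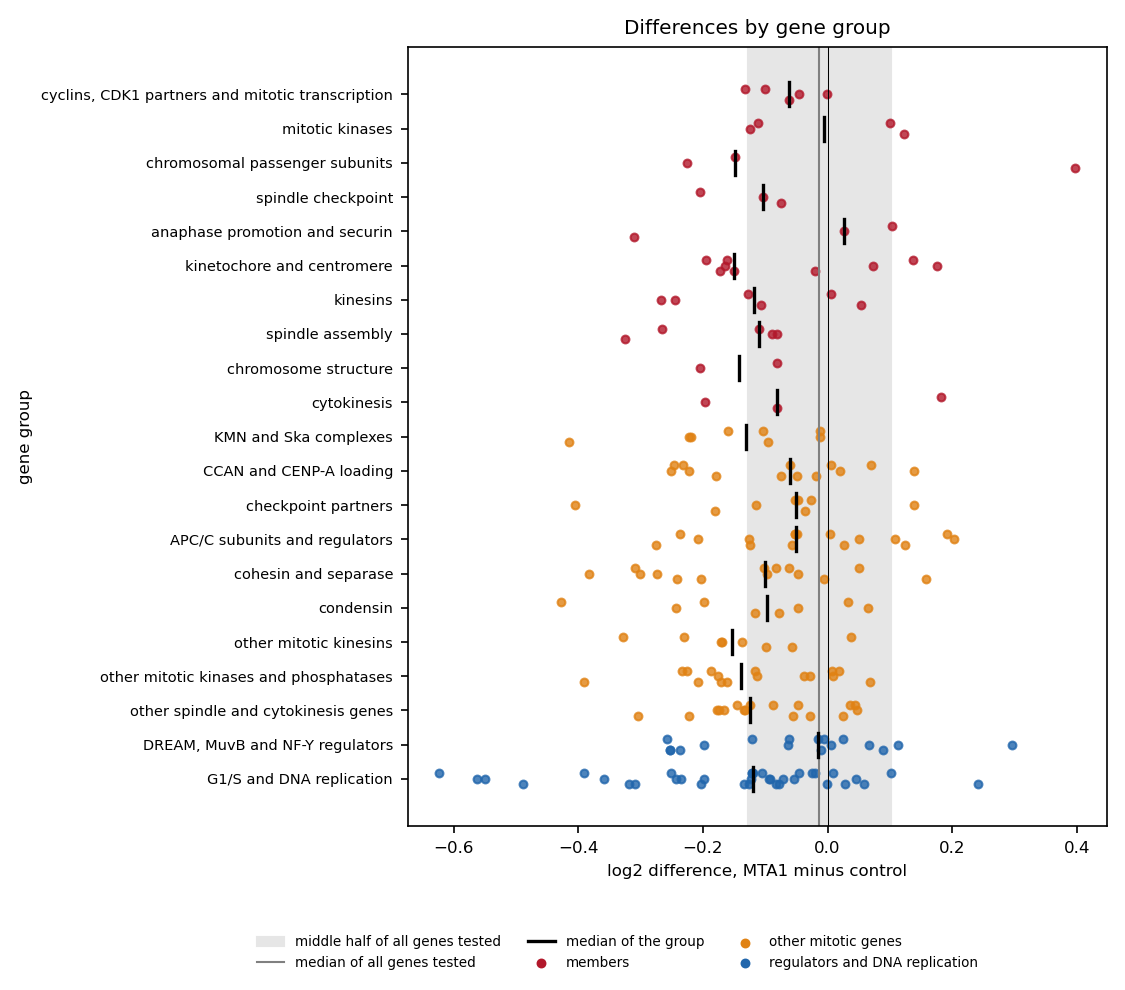
Log2 difference, MTA1 minus control (horizontal axis), of each gene at or above the floor, by group: members (red), other mitotic genes (orange), and regulators and DNA replication genes (blue), with a black bar at each group's median; the grey band is the interquartile range of all genes tested, -0.13 to 0.10. Most group medians lie between -0.15 and -0.05, while those of the mitotic kinases, at -0.0060, the anaphase and securin genes, at 0.026, and the regulators, at -0.015, lie nearer to 0.

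Other mitotic genes, in 9 lists grouped by complex or function, were also mostly below 0. Of 116 such genes 108 were at or above the floor, and 83 of them, or 76.9%, were below 0, against 53.6% of all genes. Their median difference was -0.098. At least 1.2-fold lower were 11, or 10.2%, and 0 were at least 1.2-fold higher, on arrays where 9.35% and 8.40% of all genes were. These genes share both arrays with the members, and neither set was tested. In the KMN network and the Ska complex, which complete the microtubule-binding surface of the kinetochore, 8 of 8 genes were below 0, with SKA1 at 8.77 and 8.35, 1.33-fold lower. In the centromere network and among the CENP-A loading factors 9 of 13 were below 0 and none passed 1.2-fold. Of 8 checkpoint partners 7 were below 0, and KNTC1, which encodes the ROD subunit of the complex that brings dynein to kinetochores, was at 9.80 and 9.39, 1.32-fold lower.

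Among the chromosome-shaping complexes, the condensin subunit gene NCAPD2 was at 12.62 in control cells and 12.19 in MTA1 cells, 1.35-fold lower, and 6 of 8 condensin genes were below 0. In the cohesin group 12 of 14 genes were below 0, or 85.7%, against 53.6% of all genes. Against 9.35% of all genes at least 1.2-fold lower, 4 of the 14, or 28.6%, were. These were SMC3 at 11.61 and 11.23, SMC1A at 13.55 and 13.25, SGO1, the protector of centromeric cohesin, at 9.92 and 9.62, and ESCO2, the acetyltransferase that locks cohesin, at 10.48 and 10.21. Both cohesin core ATPase genes were therefore lower, by 1.30-fold and 1.24-fold. Of the subunits and regulators of the anaphase-promoting complex 9 of 16 were below 0, close to the share of all genes, and ANAPC16 alone passed 1.2-fold, at 8.75 and 8.47. The other mitotic kinesins included 7 of 8 genes below 0, their median was -0.15, and the lowest was KIF20B at 10.76 and 10.43. Of the other kinases and phosphatases 12 of 16 were below 0, and MASTL, the Greatwall kinase that restrains a phosphatase opposing CDK1, was at 9.44 and 9.05, 1.31-fold lower. Of the other spindle and cytokinesis genes 13 of 17 were below 0, with the microtubule protein gene CKAP2 at 9.06 and 8.75.

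The regulators of this programme showed no common direction. Of 17 genes of DREAM, MuvB and NF-Y, with CDKN1A, 11 were below 0, and the median was -0.015, next to the -0.013 of all genes. MYBL2, the B-Myb factor that turns MuvB into an activator, was at 9.84 in control cells and 9.58 in MTA1 cells, a difference of -0.26 and just short of the 1.2-fold threshold. The DREAM pocket protein gene RBL1 was at 10.29 and 10.04, and the NF-Y subunit gene NFYB at 7.91 and 7.66. LIN54, the CHR-binding subunit, was at 9.72 and 9.78. CDKN1A, which encodes the CDK inhibitor p21, was the single regulator at least 1.2-fold apart, at 7.24 in control cells and 7.54 in MTA1 cells, 1.23-fold higher. The regulators' share at least 1.2-fold higher was thus 5.88%, against 8.40% of all genes, and 0 were that much lower, against 9.35%.

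The genes of G1/S and DNA replication, which precede mitosis in the cycle, were set beside the members. Of 36 such genes 30 were below 0, or 83.3%, with a median of -0.12. The members had 74.4% and -0.10, and all genes 53.6% and -0.013. At least 1.2-fold lower were 8 of the 36, or 22.2%, and 0 were higher. Beside these stood 4 and 1 members, and 9.35% and 8.40% of all genes. The lowest of the 36 were MCM10, at 9.47 in control cells and 8.84 in MTA1 cells, RFC3, at 9.66 and 9.10, GINS1, at 8.78 and 8.23, and E2F2, at 5.05 and 4.56. MCM10, 1.54-fold lower, was thus further apart than any mitotic member, of which HMMR was 1.25-fold lower. The difference between the lists was not tested.

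**Figure D4:**
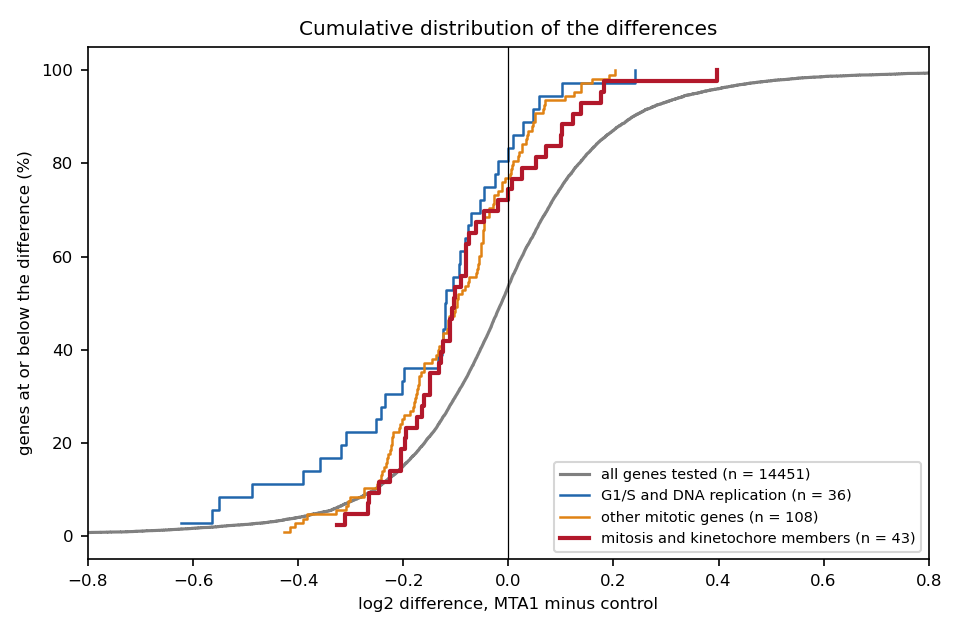
Percent of genes (vertical axis) at or below each log2 difference, MTA1 minus control (horizontal axis), for the 43 members, 108 other mitotic genes, 36 G1/S and DNA replication genes and all 14451 genes tested. The curves of the mitotic genes lie to the left of that of all genes in the centre, where 74.4% of members and 53.6% of all genes are below 0. Of the 3 gene sets drawn beside all genes, only the replication genes have values past -0.5, as some of all genes do.

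Chromosome 5 held 6 members. All of them, CCNB1, CDC25C, CENPK, HMMR, KIF20A and PTTG1, were below 0, with a median of -0.20, on a chromosome whose 600 genes had a median of -0.055 and were below 0 in 64.2% of cases. On chromosome 1, where 49.9% of 1287 genes were below 0 with a median of 0.00085, 4 of 7 members were below 0, and CDC20, CDCA8 and KIF2C were above it. On chromosome 10 the 3 members CDK1, KIF11 and MKI67 were below 0, as were 61.6% of its genes, and on chromosome 2 the members BUB1, CENPA and SPC25 were, as were 58.6% of its genes. These chromosome medians differ between chromosomes for all genes, and their part in the members' differences was not tested.

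The promoters of the members shared sequence that their selection did not use. RefSeq promoters were found for 38 of the 44 genes, 45 promoters in all. TTTGAA occurred in 30 of the 45, or 66.7%, against 15.2% of all 35116 promoters of the same length and 12.4% of 22199 promoters of protein-coding genes. CCAAT occurred in 35, or 77.8%, against 34.6% of all promoters, and both motifs in 25, or 55.6%, against 5.90%. Both strands were searched. Over the 45 promoters, some of which overlap, the CHR matches had a median position of -27. The CCAAT matches lay further upstream by their median, -82. At or downstream of -100 were 31 of 42 CHR matches and 53 of 78 CCAAT matches, so that count was not particular to CHR. In the HMMR promoter shown above, the CHR matches begin at -28 and -22, and in that of CDCA8 at -23. KIF2C, CENPE and CENPI held neither motif, and these 3 were above 0 on the MTA1 array, though KIF2C by only 0.0063. Among other genes tested, the 5047 with neither motif had a median of -0.013, and 53.6% of them were below 0.

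**Figure D5:**
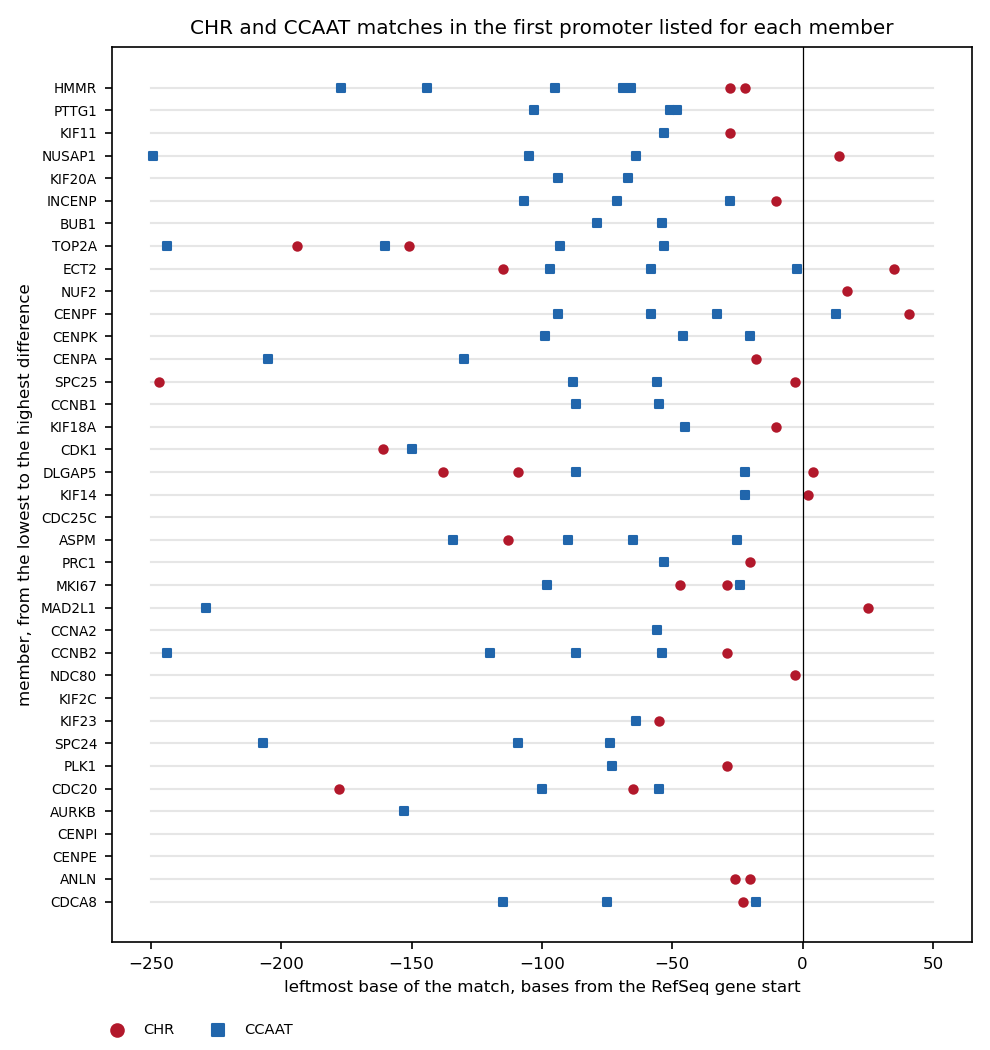
Position of TTTGAA (CHR, circles) and CCAAT (squares) matches in the first RefSeq promoter listed for each of the 37 measured members that have one, in bases from the gene start, with members ordered from the lowest difference (HMMR) to the highest (CDCA8). CHR matches gather near the start at both ends of the order, and CENPI, CENPE, KIF2C and CDC25C have no match there, CDC25C holding both motifs in other promoters listed for it.

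Of the 37 measured members with a promoter, 26 held the CHR letters and had a median difference of -0.11, with 21 below 0. The 11 without them had a median of -0.062, with 6 below 0. Outside the member list the values with and without a CHR match lay close together. Among 10021 other genes tested with a promoter, the 1393 with TTTGAA had a median of -0.022 and 55.1% below 0, and the 8628 without it had a median of -0.014 and 54.0% below 0. The 581 other genes with both motifs had a median of -0.021 and 54.9% below 0. A match is a description of letters in this window and not of a bound factor.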

How the data were processed

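Total RNA of both groups, 1 sample each as labelled, was hybridised to Affymetrix arrays. Per the submitters' processing notes the authors used RMA, which yields the deposited log2 signals. Its version, the summarisation level and the cause of values above 16 are not given in the labels. The number of arrays limits the precision. Values were used as deposited. Features were named through the platform's probe table. There were 23781 probe sets with 1 symbol and 1543 with several, which gave no name, and 21497 of the former took the current symbol of a RefSeq table (GRCh38.p14). The brightest probe set stood for each of 22465 genes, and 14451 genes reached the floor of 3.62 on either array. Differences were counted at 1.2-fold and 2-fold. The members and lists were chosen with earlier results of these data known. Text names all members, up to 4 genes per pathway list and direction past 1.2-fold, MTA1 and the markers. MYBL2, RBL1, NFYB and LIN54 were named after their values were seen. Promoter sequences came from RefSeq. The choice of probe set and the median difference were checked on simulated data with less noise than these arrays. That check does not measure error in these data. Alternatives changed scaling, floor, probe set, threshold and grouping. Python 3.11.15 with numpy 2.4.6 and pandas 2.3.3 was used, with R 4.3.3 and limma 3.58.1 for loess and quantile normalisation.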

Additional observations from a re-analysis of the deposited data

How the results depend on the processing

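The count of members below 0, 32 of 43, ranged from 30 to 42 over 9 alternatives, one of which had 40 members. Their median difference, -0.10, was -0.091 after median scaling, -0.078 after loess and -0.090 after repeated quantile normalisation. It was below 0 in 9 of 9, but the floor, probe set and hybridisation settings could not have turned it. The largest change came from the shift to the hybridisation controls, which by construction lowers every difference by 0.24. It gave a median of -0.35 for the members, 31 members at least 1.2-fold lower and 0 higher, and medians of -0.31 for the cyclin group, -0.25 for the kinases, -0.39 for the chromosomal passenger subunits, -0.35 for the checkpoint, -0.22 for the anaphase and securin genes, -0.39 for the kinetochore, -0.36 for the kinesins, -0.36 for spindle assembly, -0.39 for chromosome structure and -0.33 for cytokinesis. The 4 members at least 1.2-fold lower became 2 after median scaling, 2 after loess and 2 after repeated quantile normalisation, and KIF11, 0.0036 from the threshold, and NUSAP1, nearer still, lay at its edge. At 1.1-fold 15 members were lower and 4 higher, against 23.1% and 19.7% of all genes, and at 1.5-fold 0 and 0, against 1.74% and 1.45%. The median of the kinases, -0.0060, was 0.0072 after median scaling, 0.0095 after loess, -0.014 after quantile normalisation and -0.11 with BUB1 and TTK added. The checkpoint median was -0.069 after loess, and the anaphase and securin median, 0.026, was 0.074 after loess and 0.060 after quantile normalisation; apart from the hybridisation shift, the cause was not tested. Changing the floor or the probe set per gene changed no value of the members. The alternatives were run for the members only, and not for the lists of other mitotic, regulator and replication genes. No paired analysis was possible because each group has 1 array, and for the same reason no replicate could be left out. The signals of the members lie well above the floor, and with 1 array a group the spread of their differences is unknown.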
